A study of Homo sapiens with 5 samples.

Results

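Kinesins are the motor proteins that walk along, slide or shorten microtubules. The kinesin genes of HCT116, a human colorectal carcinoma cell line, were described here by their ribosome footprints, short pieces of mRNA covered by a ribosome and so spared by nuclease. The members were all genes of the count table whose symbol begins with KIF or KIFC and a number, with the light chain genes KLC1, KLC2 and KLC4, which gave 45 of 17297 genes. By textbook role, 15 were placed with the mitotic kinesins, 20 with the transport kinesins and light chains, and 10 with other kinesins. The MUT group held 3 libraries of cells carrying eIF6-N106S in homozygous form, obtained as clones by CRISPR/Cas9 editing. The WT group held 2 libraries of HCT116 cells labelled wild type. eIF6 is a factor that keeps the large ribosomal subunit from joining the small one too early. Both groups were grown in the same medium to 60 to 70% density, and the labels name no further treatment. Footprints of 25 to 35 nucleotides were taken after MNase digestion from the single-ribosome part of a sucrose gradient. The labels do not say how many clones gave the MUT libraries, nor whether libraries of a group were separate cultures. The p-values thus speak only for the spread among these libraries, part of which could be technical, and the edit cannot be told apart from anything else in which these clones and the WT cells differ. RNA-seq was not analysed here, so mRNA amount and ribosome loading cannot be told apart.

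Kinesins share a motor domain that burns ATP on the microtubule lattice. Mitotic kinesins build the bipolar spindle, trim microtubule ends, move chromosomes and position the division furrow, and in dividing cells many of them are made mainly in the G2 and M phases of the cycle. Most transport kinesins carry vesicles, mitochondria, endosomes and ciliary cargo outward from the cell centre throughout interphase. Light chains link the conventional kinesin heavy chain to its cargo adaptors.

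The libraries held 3076137, 3755991 and 3821176 counts in MUT, against 2095217 and 3128144 counts in WT, so WT replicate 1 was the shallowest. Of 11991 genes with enough counts to test, 22.9% passed edgeR's quasi-likelihood test at an adjusted p under 0.05, 10.0% higher and 12.9% lower in MUT. All MUT libraries lay above or all lay below the WT libraries for 50.7% of the tested genes. As a check of the cell type, 9 of 10 colon epithelial markers were used, and they summed to between 1160 and 1470 CPM (counts scaled to library size) in MUT libraries and between 1110 and 1200 CPM in WT libraries. Within that sum KRT8 and KRT19 were higher in MUT (log2 fold changes 0.37 and 0.29, edgeR adjusted p 0.0199 and 0.0463). EPCAM, CDH1 and CLDN7 were lower (-0.50, -0.90 and -0.57, edgeR adjusted p 0.0087, 0.00741 and 0.0155), and VIL1 had 0 counts in every MUT library and in WT replicate 1 and 1 count in WT replicate 2. The 6 fibroblast markers summed to at most 9.22 CPM in any MUT library and 8.99 CPM in any WT library. For leukocytes, the 4 markers in the table summed to between 5.41 and 8.72 CPM in MUT and between 1.96 and 4.99 CPM in WT, with CD68 holding the highest count in any library, 32. The 3 endothelial markers used summed to between 1.32 and 1.91 CPM in MUT and between 1.63 and 5.49 CPM in WT.

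Many cell cycle genes of the G2 and M phases carry a CCAAT box and, closer to the start, a cell cycle homology region (CHR) in their promoter, through which NF-Y and the DREAM and MYB complexes act. The 100 bases before the gene start are shown for members that the results below turn on, from RefSeq's table for GRCh38.p14, 5′ to 3′ along the gene's own strand. Capitals mark the letters CCAAT or, on the other strand, ATTGG, and the CHR letters TTTGAA or, on the other strand, TTCAAA. The first pair are KIF18A and KIF18B, related motors that control the plus ends of spindle microtubules.
KIF18A (chr11:28108157-28108256, minus strand): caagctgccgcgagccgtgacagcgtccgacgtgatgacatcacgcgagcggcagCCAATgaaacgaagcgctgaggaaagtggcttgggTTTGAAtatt
KIF18B (chr17:44947774-44947873, minus strand): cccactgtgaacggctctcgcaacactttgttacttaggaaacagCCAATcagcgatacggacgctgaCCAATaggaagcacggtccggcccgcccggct
The next 4 are the spindle motor KIF11 and the cytokinesis motors KIF14, KIF20A and KIF23.
KIF11 (chr10:92593030-92593129, plus strand): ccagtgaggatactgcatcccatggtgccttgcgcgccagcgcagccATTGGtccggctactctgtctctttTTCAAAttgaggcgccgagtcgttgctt
KIF14 (chr1:200620752-200620851, minus strand): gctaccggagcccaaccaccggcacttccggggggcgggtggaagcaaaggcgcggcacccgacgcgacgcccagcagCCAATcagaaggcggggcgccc
KIF20A (chr5:138179012-138179111, plus strand): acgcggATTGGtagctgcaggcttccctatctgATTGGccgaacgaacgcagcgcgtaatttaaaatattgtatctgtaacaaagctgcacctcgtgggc
KIF23 (chr15:69414249-69414348, plus strand): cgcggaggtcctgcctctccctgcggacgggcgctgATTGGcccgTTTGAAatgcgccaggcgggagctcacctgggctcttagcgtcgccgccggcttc
KIF2A and KIF2C, both microtubule depolymerases, are shown because neither holds either motif.
KIF2A (chr5:62306106-62306205, plus strand): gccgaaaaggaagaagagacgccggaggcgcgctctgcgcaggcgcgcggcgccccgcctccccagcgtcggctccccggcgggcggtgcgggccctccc
KIF2C (chr1:44739737-44739836, plus strand): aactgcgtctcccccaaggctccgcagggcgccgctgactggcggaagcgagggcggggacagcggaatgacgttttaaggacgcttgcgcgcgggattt
The last pair are the transport kinesins KIF1C and KIF21A, whose footprints were higher in MUT.
KIF1C (chr17:4997850-4997949, plus strand): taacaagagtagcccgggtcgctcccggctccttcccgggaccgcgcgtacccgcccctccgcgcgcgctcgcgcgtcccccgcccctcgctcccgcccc
KIF21A (chr12:39443121-39443220, minus strand): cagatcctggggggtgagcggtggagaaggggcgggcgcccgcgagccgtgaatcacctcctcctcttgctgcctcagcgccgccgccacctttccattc

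RefSeq's table held a promoter for 35 of the 45 members, each 250 bases before to 50 bases after the start. For KIFC1, KIF24, KIF7 and KIF5C the start used for the promoter lay inside the gene, past its first base. KLC2, KLC4, KIFC2, KIFC3, KIF5A, KIF13B, KIF21B, KIF19, KIF26B and KIF27 were not searched. TTTGAA, sought on both strands, lay in 10 of 15 mitotic kinesin promoters (66.7%), in 1 of 13 transport kinesin promoters (7.69%) and in 0 of 7 promoters of other kinesins. It was present in 15.4% of all 27305 promoters listed and in 9.43% of those of the tested genes. CCAAT, also sought on both strands, lay in 11 of 15 mitotic kinesin promoters (73.3%) and in 3 of 13 transport kinesin promoters (23.1%), against 35.7% of all promoters, and in 3 of 7 promoters of other kinesins (42.9%). Both motifs together were found in 9 of 15 mitotic promoters (60.0%), in 1 of 13 transport promoters, that of KIF5B, and in 6.08% of all promoters. The count for TTTGAA depended on the window. In the 250 bases before the start alone it lay in 5 of 15 mitotic promoters (33.3%) and in 13.6% of all promoters, and both motifs lay in 4 of 15 (26.7%) and in 4.85% of all promoters, while CCAAT stayed at 11 of 15. No match of one motif overlapped a match of the other in the kinesin promoters, and a match is a description of letters, not evidence of a bound site.

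Within the mitotic kinesins the motifs were counted by what the footprints did. TTTGAA lay in 4 of the 5 mitotic kinesins whose footprints were lower in MUT and in 6 of the 9 that did not pass. CCAAT lay in 4 of those 5 and in 7 of those 9. Before the start alone, TTTGAA lay in 2 of those 5 and in 3 of those 9. KIF18A, with a CCAAT letter group at position -45 and TTTGAA at -10 from the gene start, fell, while KIF18B, with CCAAT at -55 and -32 and TTTGAA at 3, did not pass. KIF2A, with neither motif, fell too.

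**Figure D1:**
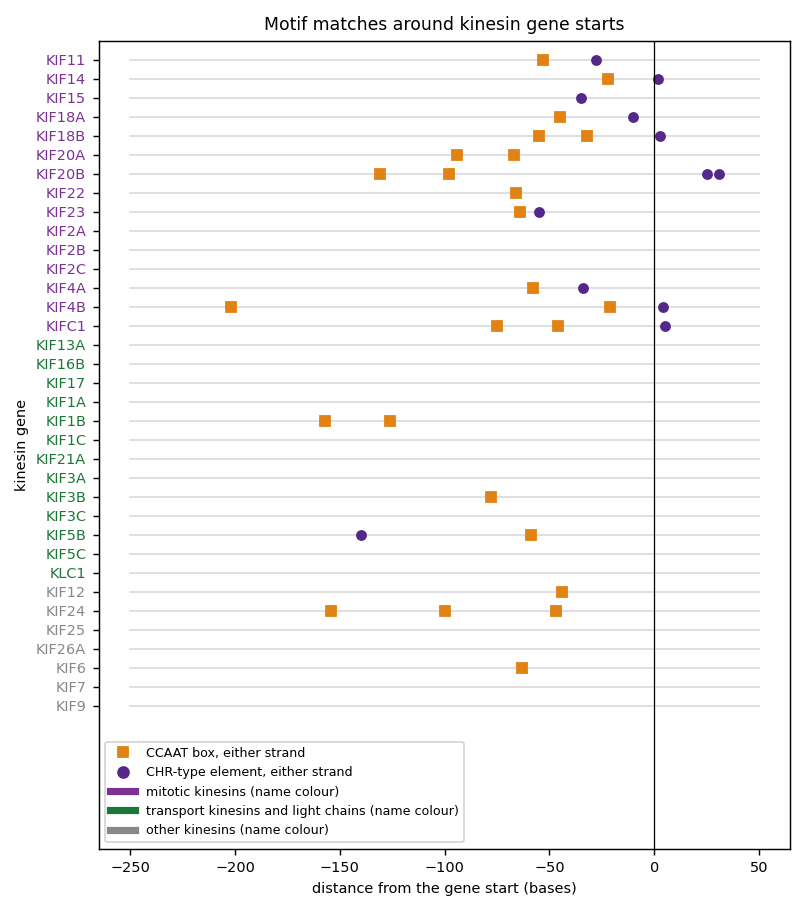
Positions of CCAAT (squares) and TTTGAA (circles) in the promoters of 35 kinesin genes, either strand, with 1 gene per row. The x axis is in bases from the start used for each promoter, and gene names are coloured by role. Most matches of the mitotic kinesins in the upper rows lie in the last 100 bases before the start or just after it, while most transport kinesins in the middle rows have none.

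Of the 45 members, 38 had enough counts to test. Across all 38, 5 were lower in MUT (13.2%) and 3 were higher (7.89%), close to the 12.9% and 10.0% among all tested genes, and their median log2 fold change was -0.02, against 0.0024 for all tested genes. Every call among the mitotic kinesins was lower, and every call among the transport members was higher. Of 14 tested mitotic kinesins 5 fell (35.7%) and 0 rose. Their median log2 fold change was -0.11, or -0.04 with scaling by library size only. It was -0.03 with KIF2A left out of the list, which is not particular to KIF2A. The median lies midway between KIF20A at -0.19 and KIFC1 at -0.03. Leaving out any member at or below KIF20A gives -0.03, and leaving out any member at or above KIFC1 gives -0.19. Of 19 tested transport kinesins and light chains 3 rose (15.8%) and 0 fell, with a median of 0.11. All MUT libraries lay on one side of the WT libraries for 19 of the 38 members, 11 above and 8 below, a share near the 50.7% of all tested genes. Log2 fold changes are MUT over WT, and since libraries were scaled to each other, each is relative to the other genes.

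**Figure D2:**
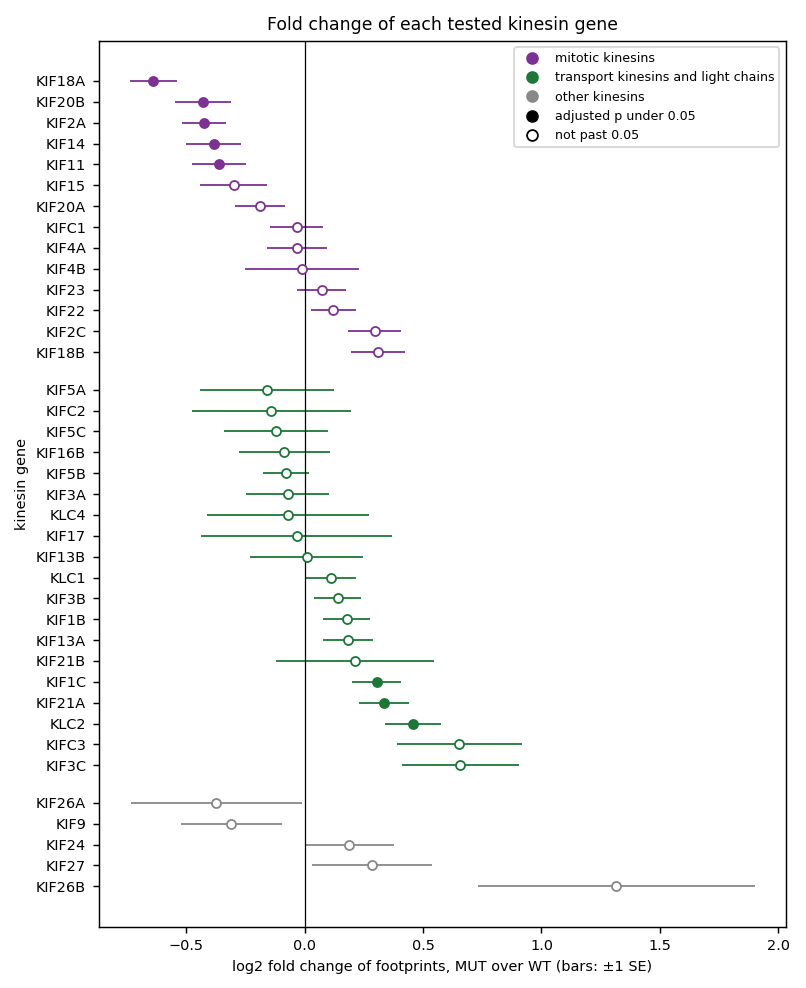
Log2 fold change of footprints, MUT over WT (x axis), for each of the 38 tested kinesin genes (rows), with bars of 1 standard error and filled points for adjusted p under 0.05. The 5 filled mitotic points lie left of 0, from -0.64 to -0.36, and the 3 filled transport points lie right of 0, from 0.30 to 0.46.

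The mitotic kinesins that fell act at several steps of division. KIF18A, which gathers at the plus ends of kinetochore microtubules and damps chromosome movement at the spindle equator, had 108, 122 and 120 CPM in MUT, against 172 and 191 CPM in WT. Its 3 MUT values lay close together and well below both WT values. The log2 fold change of -0.64 (SE 0.10) was the largest fall among the tested kinesins, with edgeR's adjusted p at 6.48e-05 over all 11991 genes, and it passed in all 16 refits. In a bulk culture, fewer cells in mitosis and fewer footprints per cell cannot be told apart, here and for each mitotic gene that follows.

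KIF2A, a depolymerase that works at spindle poles and also outside mitosis, had 154, 151 and 162 CPM in MUT, against 214 and 205 CPM in WT. The groups did not overlap and each was tight. It was lower by a log2 fold change of -0.43 (SE 0.09), with edgeR's adjusted p at 0.00194, and it too passed in all 16 refits.

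KIF20B, needed for the late steps of cytokinesis, had 135.5, 154 and 158 CPM in MUT, against 162 and 235 CPM in WT. WT replicate 2 was far above WT replicate 1, which lay just above the highest MUT library. Its log2 fold change was -0.43 (SE 0.12), with edgeR's adjusted p at 0.0101. Without WT replicate 2 the log2 fold change was -0.11 with an adjusted p of 0.612, and without MUT replicate 1 the adjusted p was 0.0855.

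KIF14, a midbody motor that brings citron kinase to the division site, had 77.0, 89.5 and 94.2 CPM in MUT, against 101 and 125 CPM in WT. The groups did not overlap, though MUT replicate 3 and WT replicate 1 lay near each other. KIF14 had a log2 fold change of -0.38 (SE 0.12), with edgeR's adjusted p at 0.0191, which became 0.419 without WT replicate 2 (log2 fold change -0.20) and 0.113 without MUT replicate 1. DESeq2 (0.0741) and scaling by library size only (0.0565) also ended the call.

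KIF11, the motor that pushes the spindle poles apart and the target of several mitotic inhibitors, had 91.6, 115 and 89.8 CPM in MUT, against 121 and 132 CPM in WT. MUT replicate 2 came close to WT replicate 1, and the other two MUT libraries lay lower. Its log2 fold change was -0.36 (SE 0.11), with edgeR's adjusted p at 0.0232. Leaving out any one of MUT replicate 1, MUT replicate 3, WT replicate 1 or WT replicate 2 put the adjusted p past 0.05, between 0.0532 and 0.263, and so did DESeq2 (0.0827), library size only (0.0655) and thinning to the smallest library (0.0829), 7 of 16 refits in all.

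The central spindle motors KIF20A and KIF23 did not pass, while KIF14 and KIF20B, which also act in cytokinesis, were lower as given above. KIF20A, which carries the chromosomal passenger complex to the midzone, had 137, 152 and 130 CPM in MUT, against 141 and 175 CPM in WT. The groups overlapped, and the log2 fold change was -0.19 with edgeR's adjusted p at 0.201. KIF23, the motor subunit of the centralspindlin complex, had 159, 184 and 151 CPM in MUT, against 152 and 161 CPM in WT. Its groups overlapped too, with a log2 fold change of 0.07 and edgeR's adjusted p at 0.657.

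Among the other mitotic members, KIF15, which can stand in for KIF11 in keeping the spindle bipolar, had 42.0, 57.7 and 49.8 CPM in MUT, against 59.4 and 63.4 CPM in WT. Its MUT libraries all lay below WT, but the log2 fold change of -0.30 did not pass (edgeR adjusted p 0.124). KIFC1, which focuses spindle poles and walks toward minus ends, was at -0.03 log2, and the chromokinesin KIF4A at -0.03. KIF4B, a near-copy of KIF4A whose reads cannot be told apart from it with certainty, was at -0.01. KIF22, a chromokinesin that pushes chromosome arms toward the equator, was at 0.12 (edgeR adjusted p 0.386).

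The relatives of KIF18A and KIF2A had log2 fold changes above 0 that did not pass. KIF18B, which shortens astral microtubules, had 93.2, 94.5 and 101 CPM in MUT, against 71.4 and 83.1 CPM in WT. All MUT libraries lay above WT, but the log2 fold change of 0.31 (SE 0.11) fell just short of the threshold, with edgeR's adjusted p at 0.052. KIF2C, the centromere depolymerase that corrects faulty attachments, had 112, 118 and 102 CPM in MUT, against 83.4 and 95.1 CPM in WT, again without overlap. The log2 fold change of KIF2C was 0.30 (SE 0.11), with edgeR's adjusted p at 0.0555. Both genes were higher past the threshold in some refits, KIF18B in 3 of 16 and KIF2C in 5 of 16, among them those scaled by upper quartile or by library size only.

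**Figure D3:**
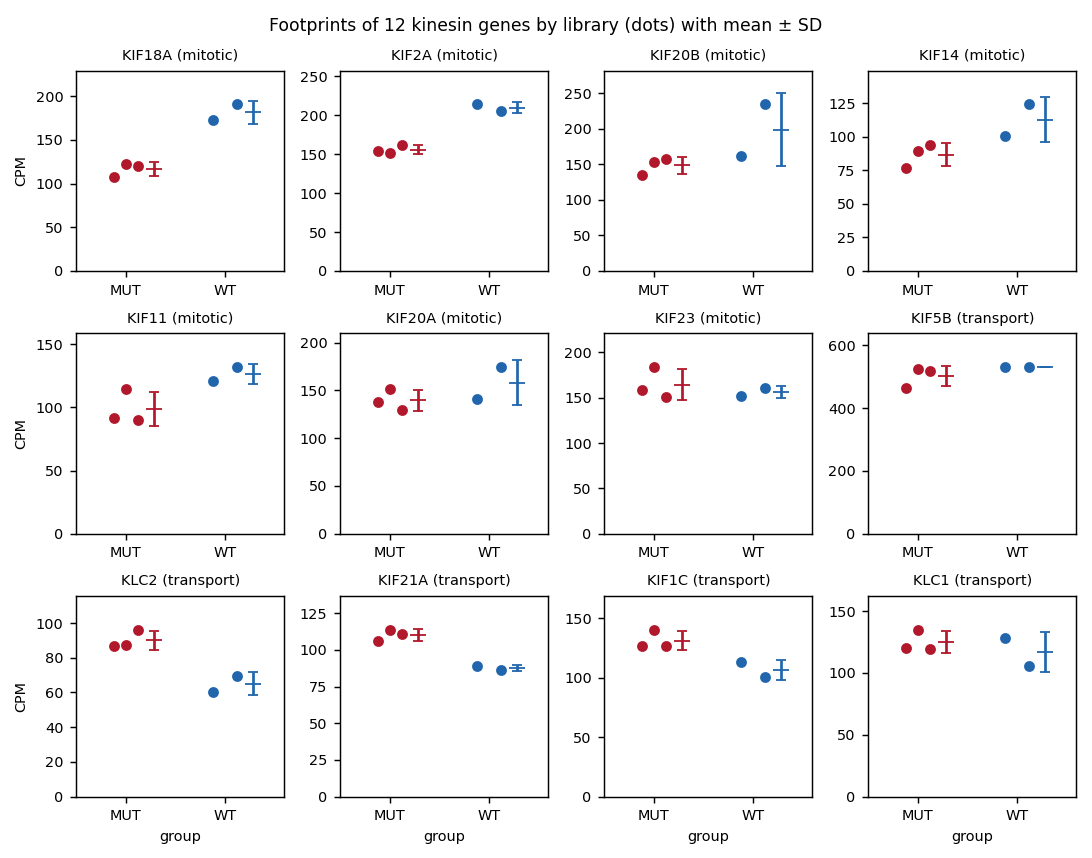
Footprints in CPM (y axes, each from 0) of 12 kinesin genes in each MUT library (red dots) and WT library (blue dots), with mean ± SD as bars (n = 3 MUT, n = 2 WT). KIF18A, KIF2A, KIF20B, KIF14 and KIF11 are lower in all MUT libraries than in either WT library, and so is the transport kinesin KIF5B by a small margin. KLC2, KIF21A and KIF1C are higher in all MUT libraries, and KIF20A, KIF23 and KLC1 overlap.

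Ratios between relatives within a library do not depend on how libraries were scaled. These 3 pairs were picked after the counts had been seen, so their values are a description and no p is given. An exact test over the 10 arrangements of these libraries cannot go below 0.1. KIF18A had 1.16, 1.30 and 1.18 counts for each count of KIF18B in MUT, against 2.41 and 2.30 in WT. The difference of mean log2 ratios was -0.96. KIF2A had 1.38, 1.28 and 1.59 counts per count of KIF2C in MUT, against 2.57 and 2.15 in WT, a difference of -0.74 in mean log2 ratio. For both pairs every MUT library was below both WT libraries. KIF20A had 1.01, 0.985 and 0.823 counts per count of KIF20B in MUT, against 0.871 and 0.743 in WT, and the groups overlapped.

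**Figure D4:**
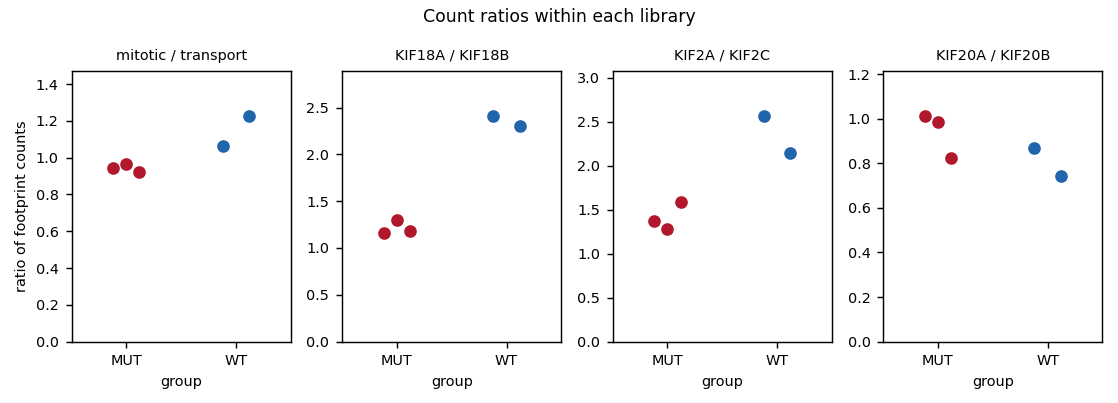
Ratio of footprint counts within each library (y axes, from 0) for all mitotic over all transport kinesins and for 3 pairs of related kinesins, with MUT libraries in red and WT libraries in blue. The mitotic over transport, KIF18A over KIF18B and KIF2A over KIF2C ratios are lower in every MUT library than in either WT library, and for KIF20A over KIF20B the groups overlap.

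On the transport side, the cargo-binding light chain KLC2 had 86.5, 87.2 and 96.2 CPM in MUT, against 60.4 and 69.6 CPM in WT. The MUT libraries were all well above WT. The rise had a log2 fold change of 0.46 (SE 0.12), with edgeR's adjusted p at 0.0076. Without WT replicate 1 it was 0.36 with an adjusted p of 0.0947.

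KIF21A, a motor that slows microtubule growth at the cell cortex and was listed here with the transport kinesins, had 106, 114 and 111 CPM in MUT, against 88.9 and 86.3 CPM in WT. Both groups were tight and apart, with a log2 fold change of 0.34 (SE 0.11) and edgeR's adjusted p at 0.0246. KIF1C, a fast vesicle motor that carries dense-core vesicles, had 127, 141 and 127 CPM in MUT, against 113 and 101 CPM in WT. Its groups did not overlap, with a log2 fold change of 0.30 (SE 0.10) and edgeR's adjusted p at 0.0364. Neither passed without WT replicate 1 (adjusted p 0.0791 for KIF21A and 0.0565 for KIF1C), without WT replicate 2 (0.153 and 0.297), without MUT replicate 1 (0.0509 and 0.0735) or without MUT replicate 2 (0.0675 and 0.13), while the log2 fold changes stayed above 0. DESeq2 (adjusted p 0.0933 for KIF21A and 0.123 for KIF1C) and thinning to the smallest library (0.0915 and 0.0874) ended both calls too.

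The heavy chain that these light chains serve did not pass. KIF5B, the widely expressed heavy chain, had 465, 523 and 518 CPM in MUT, against 530 and 531 CPM in WT. The MUT libraries lay below WT by a small margin, and the log2 fold change of -0.08 did not pass (edgeR adjusted p 0.585). KIF5B made up 30.6%, 32.1% and 32.5% of all transport kinesin counts in MUT, against 35.6% and 36.4% in WT. The light chain KLC1 had 121, 135 and 119 CPM in MUT, against 128 and 106 CPM in WT, with overlap and a log2 fold change of 0.11 (edgeR adjusted p 0.493). KLC4, another light chain, had 6.04, 9.22 and 7.95 CPM in MUT, against 6.49 and 9.48 CPM in WT, with a log2 fold change of -0.07 (edgeR adjusted p 0.906). The difference in response between light chains was not tested.

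A pair of low-count motors had larger fold changes than those that passed, with wide errors. KIF3C, which pairs with KIF3A, had 18.1, 17.9 and 27.97 CPM in MUT, against 13.0 and 14.1 CPM in WT. Its log2 fold change of 0.66 (SE 0.25) had an adjusted p of 0.0545 by edgeR, and MUT replicate 3 stood above the other two. KIFC3, a minus-end motor of junctions and the Golgi, had 15.0, 14.0 and 18.7 CPM in MUT, against 10.99 and 9.48 CPM in WT. Its log2 fold change was 0.65 (SE 0.26), with edgeR's adjusted p at 0.0756. Both genes had no overlap between groups.

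The remaining transport members gave small differences. The ciliary motor subunits KIF3A and KIF3B had log2 fold changes of -0.07 and 0.14, and the ciliary and dendritic motor KIF17 had -0.03. The endosome motors KIF13A and KIF16B stood at 0.18 and -0.09. KIF1B, which moves mitochondria and synaptic vesicle precursors, stood at 0.18, and like KIF13A it was higher in all MUT libraries than in either WT library without passing. The neuronal heavy chains KIF5A and KIF5C gave -0.16 and -0.12, KIF21B 0.21, KIFC2 -0.14 and KIF13B 0.01. None of these passed, with edgeR's adjusted p from 0.202 for KIF1B to 0.988 for KIF13B.

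None of the 5 tested members among the other kinesins passed. KIF26B, a kinesin relative that takes part in non-canonical WNT signalling, had 21, 14 and 13 counts in MUT, against 3 and 6 counts in WT, or 6.68, 3.69 and 3.34 CPM in MUT, against 1.498 and 1.96 CPM in WT. Its log2 fold change of 1.32 (SE 0.58) was the largest of any tested kinesin and had an adjusted p of 0.105 by edgeR. KIF26A stood at -0.37, KIF9, a motor of motile cilia, at -0.31, KIF27 at 0.285, and KIF24, which restrains cilium formation at the mother centriole, at 0.19, with edgeR's adjusted p from 0.306 to 0.504.

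The 7 members that were not tested had few counts. KIF12 had 6, 13 and 12 counts in MUT, against 5 and 4 counts in WT. KIF1A, a motor of neuronal synaptic vesicle precursors, had 1, 1 and 8 counts in MUT, against 0 and 0 in WT, where a count of 0 allows up to 1.498 CPM in WT replicate 1 and 0.981 CPM in WT replicate 2. MUT replicate 3, at 2.05 CPM, lay above both limits and the other two MUT libraries below them. KIF7, the Hedgehog pathway kinesin of the cilium, had 2, 1 and 3 counts in MUT, against 1 and 2 in WT. KIF19 had 2, 4 and 1 counts in MUT and 1 and 1 in WT. KIF25, KIF6 and KIF2B had at most 3 counts in any MUT library and at most 2 in any WT library, so differences in these genes were not detectable at this depth.

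Summed over their members, mitotic kinesins took 0.146%, 0.159% and 0.150% of all counts in MUT, against 0.151% and 0.175% in WT. These ranges overlap, but they are shares of raw totals, not of the TMM-scaled library sizes behind CPM and fold changes. The TMM factors were 1.026, 1.014 and 1.023 in MUT, against 0.9588 and 0.9805 in WT. On the scaled sizes the mitotic sums in MUT are thus lower relative to WT than these shares show. Transport kinesins took 0.155%, 0.165% and 0.163% in MUT, against 0.142% and 0.143% in WT, without overlap. These too are shares of raw totals, which set MUT higher relative to WT than the scaled sizes do. The 95% exact binomial interval of the transport share was 0.151% to 0.160% in MUT replicate 1 and 0.137% to 0.148% in WT replicate 1. Such intervals, like the limits for counts of 0, cover counting error only. The library's ratio of mitotic to transport counts was 0.941, 0.965 and 0.924 in MUT, against 1.06 and 1.23 in WT. Leaving out KIF5B, the most counted member, it was 1.36, 1.421 and 1.37 in MUT, against 1.65 and 1.93 in WT. Either way every MUT library was below both WT libraries.

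The mitotic difference depended on the library left out. Each gene's deviation was taken from the midpoint of its MUT mean and its WT mean, in log2 units. The median deviation of the 14 mitotic kinesins was -0.13, 0.05 and -0.13 in MUT, against -0.03 and 0.16 in WT. MUT replicate 2 thus lay above WT replicate 1. For the 19 transport members the median deviation was 0.06, 0.13 and 0.03 in MUT, against -0.07 and -0.13 in WT, without overlap. The median log2 fold change of the mitotic kinesins was -0.06 without WT replicate 2, against -0.11 with it, and -0.23 without MUT replicate 2 (-0.235 without WT replicate 1). The mitotic median stayed below the transport median in all 16 refits, with a difference of -0.47 to -0.16 log2 units, which was not tested.

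The same roles can be followed in partner genes. Of 19 partners of mitotic kinesins 1 fell (5.26%, against 12.9% of all tested genes) and 0 rose, with a median log2 fold change of -0.09, beside 5 of 14 among the mitotic kinesins themselves, and the difference between those counts was not tested. The 1 that fell is itself a kinesin. CENPE, which moves chromosomes along the spindle to the equator, is named outside the KIF series and had 82.7, 112 and 103 CPM in MUT, against 121 and 161.5 CPM in WT, with a log2 fold change of -0.52 (SE 0.12) and edgeR's adjusted p at 0.00401. The passenger complex members INCENP (0.44, adjusted p 0.0525) and BIRC5 (-0.22, adjusted p 0.094) and the microtubule polymerase CKAP5 (0.25, adjusted p 0.0962) did not pass.

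Of 20 genes listed as partners of transport kinesins 3 rose (15.0%, against 10.0% of all tested genes). The list showed 1 fall (5.00%, against 12.9%) and a median log2 fold change of 0.21. It included the light chain KLC3 and STARD9, itself a kinesin named outside the KIF series. Neither passed (edgeR adjusted p 0.531 and 0.463). The scaffolds MAPK8IP2 and MAPK8IP1, which tie kinesin light chains to cargo, rose by 0.97 and 0.70 log2 units (edgeR adjusted p 0.0144 and 0.044). TRAK1, the adaptor between KIF5 motors and mitochondria, rose by 0.29 (edgeR adjusted p 0.0489). RHOT1, the mitochondrial GTPase that anchors that adaptor, fell by 0.43 (edgeR adjusted p 0.0127).

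Dynein and dynactin, which carry cargo the opposite way, gave 1 gene higher (4.17%) and 4 lower (16.7%) of 24 tested, near the 10.0% and 12.9% of all tested genes, with a median log2 fold change of 0.02. The dynein adaptor HOOK1 fell by 0.58 log2 units, the light chain DYNLT1 by 0.33 and the dynactin pointed-end subunit DCTN6 by 0.36, with edgeR's adjusted p at 0.0025, 0.0143 and 0.0225. DCTN1, the large dynactin subunit, rose by 0.36 (edgeR adjusted p 0.0227).

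Genes of the G2 and M phases outside the kinesin family were counted in the same way. PLK1, HMMR, AURKA, ANLN and TPX2 were also on the list of mitotic partners above, and none of them passed. Of 25 listed genes 11 fell (44.0%, against 12.9% of all tested genes) and 0 rose (against 10.0%), while 14 did not pass, and the median log2 fold change was -0.19. The log2 fold change was above 0 for 6 of them. Their summed level was 4830, 5143 and 4748 CPM in MUT, against 5467 and 5939 CPM in WT, so that every MUT library was lower. The calls with the lowest p were the kinetochore protein CENPF at -0.75, the mitotic kinase CDK1 at -0.51, the checkpoint kinase TTK at -0.49 and the spindle pole protein ASPM at -0.50, with edgeR's adjusted p from 2.31e-05 to 0.00109. Their part in the result for the mitotic kinesins was not tested.

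Position in the genome was compared because neighbouring genes can move together. KIF18A lies on chromosome 11 at 28020619 to 28108156 (GRCh38.p14), and the 16 tested genes within 5 Mb had a median log2 fold change of -0.14, so that KIF18A differed from them by -0.50. KIF20B and KIF11 lie on chromosome 10 at 89701590 to 89774934 and at 92593130 to 92655395. They differed by -0.325 and -0.35 from their neighbours, whose medians were -0.10 over 40 genes and -0.01 over 52. KIF14, on chromosome 1 at 200551497 to 200620751, differed by -0.41 from a median of 0.02 over 49 genes. KIF2A, on chromosome 5 at 62306206 to 62391025, differed by -0.22 from a median of -0.21 over 22 genes.

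KLC2 and KIF1C had neighbours with medians above 0. KLC2, on chromosome 11 at 66243938 to 66267860, had 189 tested neighbours with a median of 0.23 and stood 0.23 above them. KIF1C, on chromosome 17 at 4997950 to 5028401, had 139 with a median of 0.15 and stood 0.15 above them. KIF21A, on chromosome 12 at 39293228 to 39443120, had 13 neighbours with a median of -0.11 and stood 0.45 above them. With the trend of log2 fold change on gene density and gene span removed, an alternative chosen after seeing the data, KLC2 was at 0.26 (edgeR adjusted p 0.137) and KIF1C at 0.14 (adjusted p 0.377), while KIF21A and the 5 mitotic kinesins still passed.

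**Figure D5:**
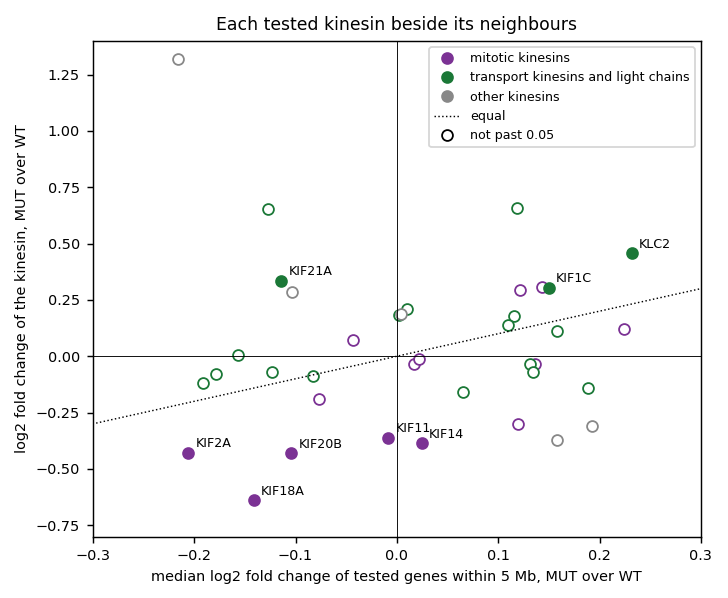
Log2 fold change of each tested kinesin, MUT over WT (y axis), against the median log2 fold change of the tested genes within 5 Mb of it (x axis), with filled points for adjusted p under 0.05 and a dotted line where both are equal. The 5 filled mitotic kinesins lie below the line, at -0.50 to -0.22 relative to their neighbours, and KLC2 and KIF1C lie above it with neighbours that are themselves at 0.23 and 0.15.

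Gene span, from first to last base of the gene, was set beside the fold change as a description. Over the 14 tested mitotic kinesins Spearman's rho between span and log2 fold change was -0.55, over the 19 transport members 0.12, and over 11856 tested genes -0.06. The mitotic kinesins that fell span from 62266 bases for KIF11 to 87538 bases for KIF18A. KIF18B and KIF2C span 23063 and 27931 bases, KIF22 14635 and KIF20A 8612. KIF4A and KIF15, the longest at 130783 and 106894 bases, did not pass. All points share the same 5 libraries, and no p is given.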

How the data were processed

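Ribosome-protected fragments of 3 MUT and 2 WT libraries were analysed, grouped by their labels. The deposited values are raw counts per gene, whole numbers with no normalization by the authors. Per the submitters' processing notes, reads were handled with STAR 2.5.2b, cutadapt 4.6, FastQC 0.12.1 and DESeq2 1.42.0 on hg38. Strand use, annotation and counter were not given in the sources used. Hence genes with near-copies or overlapping genes are uncertain. There is no coding length to scale by, so levels were not compared between genes.

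Tests were run with edgeR 4.0.16 (limma 3.58.1, R 4.3.3). The filter filterByExpr required a count of 10 and a total of 15, and TMM factors lay between 0.959 and 1.03. A quasi-likelihood F test compared the groups with 3 residual degrees of freedom. It moderates each gene's spread toward that of other genes, so each p rests partly on the spread of other genes. Benjamini-Hochberg adjustment was over 11991 genes, at a threshold of 0.05. The common biological coefficient of variation was 7.37%. CPM values use the TMM-scaled library sizes. Standard errors come from the F statistic. The procedure was tested on simulated data. A median over a role has no test. Gene names were matched by symbol to RefSeq's table for GRCh38.p14 (17073 of 17297 names and all 45 members), which also gave coordinates and promoters.

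The members, roles and comparison lists were chosen with earlier results of these data known. The genes named with values per library are every member past the threshold, KIF11, KIF18A, KIF20A, KIF23, KIF5B, KLC1, KLC2 and KLC4, and others whose values are printed were chosen after they were seen. Of each comparison list up to 4 genes with the lowest p are named. Shared replicate numbers are not said to mark a shared culture. Of 16 refits, 1 was added after seeing the data.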

Additional observations from a re-analysis of the deposited data

How the results depend on the processing

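All refits kept the mitotic median below 0 and the transport median above 0. KIF18A and KIF2A were called lower in all 16. Members called higher numbered 3 in the analysis reported, 6 with upper-quartile scaling and with the strict filter (mean of 10 CPM, with 30 counts in 2 or more libraries), 7 with library size only, and 1 each with DESeq2, with libraries thinned to the smallest and with the trend on gene density and span removed. Members called lower numbered 5, but 3 with library size only and with DESeq2, and 4 with libraries thinned to the smallest. Leaving out each library in turn gave 0 to 4 higher (0 without WT replicate 1, 1 without WT replicate 2 or MUT replicate 1) and 2 to 6 lower (2 without WT replicate 2 or MUT replicate 1). The transport median was 0.18 with library size only, 0.17 with the strict filter, 0.024 after thinning and 0.0936 to 0.231 leaving out libraries. The mitotic median was -0.04 with library size only, -0.0662 with upper-quartile scaling, -0.236 with the trend removed and -0.235 to -0.0595 leaving out libraries. With KIF2A, which also works in interphase, taken off the list it was -0.034. Taking off any other member at or below KIF20A gives that same value. Among all genes DESeq2 called 610 higher and 953 lower, and leaving out libraries gave 509 to 1089 higher and 732 to 1339 lower. By share of calls, 1558 genes were higher and 1209 lower with upper-quartile scaling, and 1756 and 1040 with library size only, against 1203 and 1544 in the analysis reported. The replicate block called 4 members higher, with KIF2C added, and 5 lower. It gave 1529 higher and 1909 lower genes in all. Deviations of same-numbered libraries from their group means had correlations of 0.0793 and 0.148. The deviations of 2 WT libraries from their own mean are mirror images, so these correlations cannot decide whether the numbers mark pairs. The numbers are not taken as pairs because no label says that they are. The cause of these shifts was not tested. The shallowest library, WT replicate 1, held 2095217 counts, which sets the counting error of its values.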
